A study of Mus with 9 samples.

Results

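The 39 genes described here encode the enzymes and regulators that remove superoxide and peroxides, make and recycle glutathione, repair oxidized methionine and bind metals. They were chosen by symbol from a list, and all 39 were found among the 54532 genes of the table and passed the filter on low counts. RNA was sequenced from the kidneys of male C57BL/6 mice, 3 libraries in each of 3 groups. Every mouse, controls included, had undergone removal of the other kidney (unilateral nephrectomy) when 18 months old. Mice of the 18 mo group were killed 1 week later. The 21 mo group received saline and the 21 mo/O304 group received O304, an activator of the energy-sensing kinase AMPK, at 10 mg/kg/day by intraperitoneal injection for 12 weeks. Age, time since surgery and injection thus differ together when 18 mo mice are set against older ones and cannot be told apart, whereas 21 mo/O304 against 21 mo compares mice of the same age. The question put to these genes was how their RNA levels differed with age and with O304.

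Superoxide is formed mainly by the respiratory chain of mitochondria, which are dense in the tubules of the kidney. Superoxide dismutases turn it into hydrogen peroxide, and catalase, glutathione peroxidases and peroxiredoxins reduce that peroxide, the last with electrons that NADPH hands on through thioredoxin. Glutathione is a tripeptide made from glutamate, cysteine and glycine, and the brush border of the proximal tubule carries the enzyme that begins its breakdown. Many of these genes are switched on by the factor NRF2, which its partner KEAP1 marks for destruction in unstressed cells.

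The libraries held between 15636378 and 18396725 counts on genes. The 39 genes took 3.31 to 4.39% of all counts in a library, and Gpx3 by itself 2.01 to 2.99%. The 21 mo libraries differed more among themselves than those of the other groups, with a biological coefficient of variation of 44.1% against 18.1% at 18 mo and 20.6% with O304. The 10 proximal tubule markers were above 0 in every library. Of the distal convoluted tubule markers, Pvalb was at 0 in replicate 3 of the 21 mo group. There Slc12a3 was at 244 CPM (counts scaled to library size after TMM normalization) and Trpm6 at 14.7 CPM. The 18 mo libraries held 624 to 880 CPM of Slc12a3 and 11.0 to 13.3 CPM of Trpm6. The 10 proximal tubule markers summed to 12779, 6039.85 and 1606 CPM in replicates 1, 2 and 3 of the 21 mo group, against 11982 to 15237 CPM at 18 mo and 12816 to 13984 CPM with O304. The markers of tubule injury Havcr1, Lcn2, Krt20 and Spp1 summed to 1265, 11980.2 and 13889 CPM in the same 3 libraries, against 629 to 768 and 658 to 1027 CPM in the other groups. Most of that sum was Spp1. The 7 macrophage markers summed to 1207, 1441 and 2223 CPM in the 21 mo libraries, against 635 to 889 and 889 to 1155 CPM. The 4 fibroblast markers Pdgfrb, Col1a1, Dcn and Postn summed to 67.2, 164 and 433 CPM in the same libraries, against 76.3 to 120.1 CPM at 18 mo and 53.4 to 150.2 CPM with O304. In whole kidney, fewer cells of a type and less RNA per cell cannot be told apart. The part of these marker differences in the values below was not tested.

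**Figure D1:**
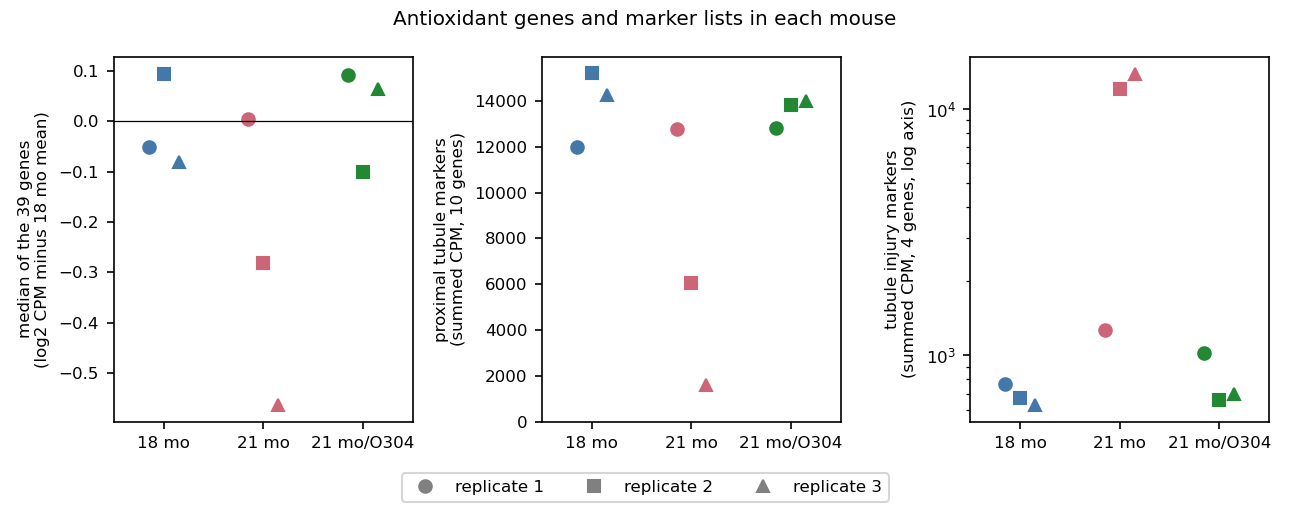
Each point is 1 library, with the group on the horizontal axis and the replicate number as the symbol. The left panel gives the median over the 39 genes of log2 CPM minus the 18 mo mean, the middle panel the summed CPM of 10 proximal tubule markers, and the right panel the summed CPM of 4 tubule injury markers on a log axis. Replicate 1 of the 21 mo group lies with the other groups in the left and middle panels, while replicates 2 and 3 lie below them at -0.28 and -0.56 in the left panel.

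The level of each gene per length was taken from the deposited FPKM (a fragment count scaled to gene length and library size). Gpx3, the glutathione peroxidase that the kidney secretes into plasma, had a mean FPKM of 14071 over the 9 libraries and rank 4 among all genes of the table. It made up 64.7 to 75.4% of the summed FPKM of the 39 genes. The next in order were Gpx1, the peroxidase of the cytosol and mitochondria, at a mean FPKM of 1703, Prdx5 at 538, Gpx4, which reduces lipid peroxides in membranes, at 486, Cat at 368 and Ggt1 at 329. The ranges over libraries of Prdx5, Gpx4, Cat and Ggt1 overlapped, while those of Gpx3 and Gpx1 lay above them. A mean FPKM of at least 100 was found for 14 genes, one between 10 and 100 for 19 and one below 10 for 6, of which Mt2 was lowest at 1.66.

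**Figure D2:**
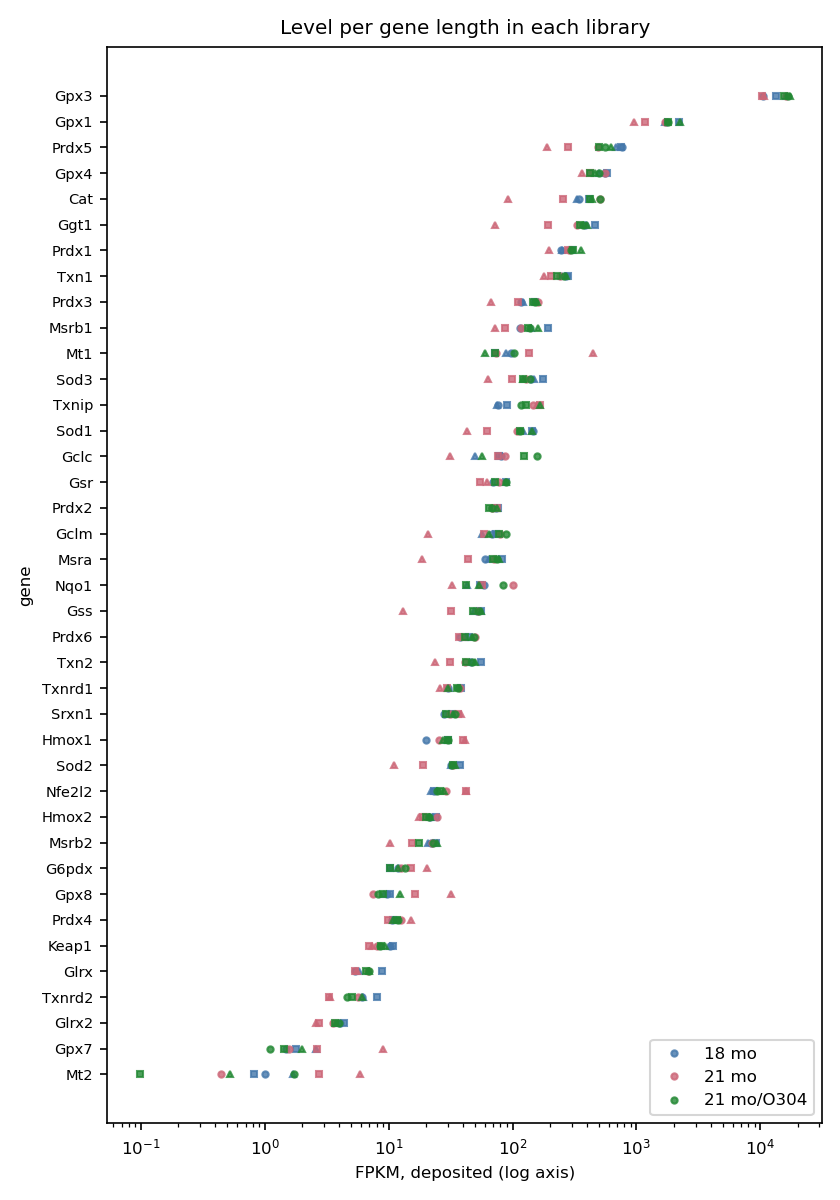
Deposited FPKM of the 39 genes on a log axis, 1 point per library, coloured by group and ordered by the mean over libraries. Gpx3 stands apart at 10309 to 17215 FPKM, and the lowest points of most of the abundant genes are 21 mo libraries.

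In the 21 mo group, dismutases, catalase, thioredoxins, mitochondrial reductases and methionine sulfoxide reductases were at lower fitted levels than in the 18 mo group, and Nfe2l2, Txnip, G6pdx, Mt1 and the peroxidases of the endoplasmic reticulum were at higher ones. None of the 39 passed an adjusted p under 0.05 in the edgeR quasi-likelihood test with Benjamini-Hochberg adjustment over 15902 genes, in which 0.0189% of all genes did. The lowest adjusted p among them, 0.0626, was shared by Txnip, Nfe2l2 and Keap1. At an unadjusted p under 0.05 stood 14 of the 39 (35.9%), 4 higher and 10 lower, beside 26.1% of all genes, 14% higher and 12% lower. The fitted value was below 0 for 27 of the 39 (69.2%), against 47.3% of all genes, and the median log2 fold change was -0.21 against 0.03 over all genes. The 21 mo libraries did not overlap those of 18 mo for 13 genes, 3 higher and 10 lower, beside 28.8% of all genes, 13.5% higher and 15.3% lower.

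DESeq2 called 6 of the 39 (Keap1, Msrb1, Nfe2l2, Prdx5, Sod1 and Txnip), beside 12.3% of all genes with an adjusted p. Keeping every gene with at least 1 count, edgeR called Nfe2l2 and Txnip, beside 2.04% of all genes. The limma voom fit with library quality weights, which gave replicate 2 of the 21 mo group the largest weight, called 27, beside 52.9%. When replicate 1 of the 21 mo mice was left out 22 were called, 7 higher and 15 lower, beside 25.4% of all genes, 13.6% higher and 11.9% lower. The median of the 39 was then -0.38. Without replicate 3 of that group 0 were called and the median was -0.07, and without replicate 2 of the 18 mo group it was -0.12. Taken singly, replicates 1, 2 and 3 of the 21 mo group had medians of 0.01, -0.28 and -0.56 on the log2 scale against the 18 mo mean. The same libraries were below the 18 mo range for 13, 25 and 25 genes and above it for 11, 9 and 10.

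**Figure D3:**
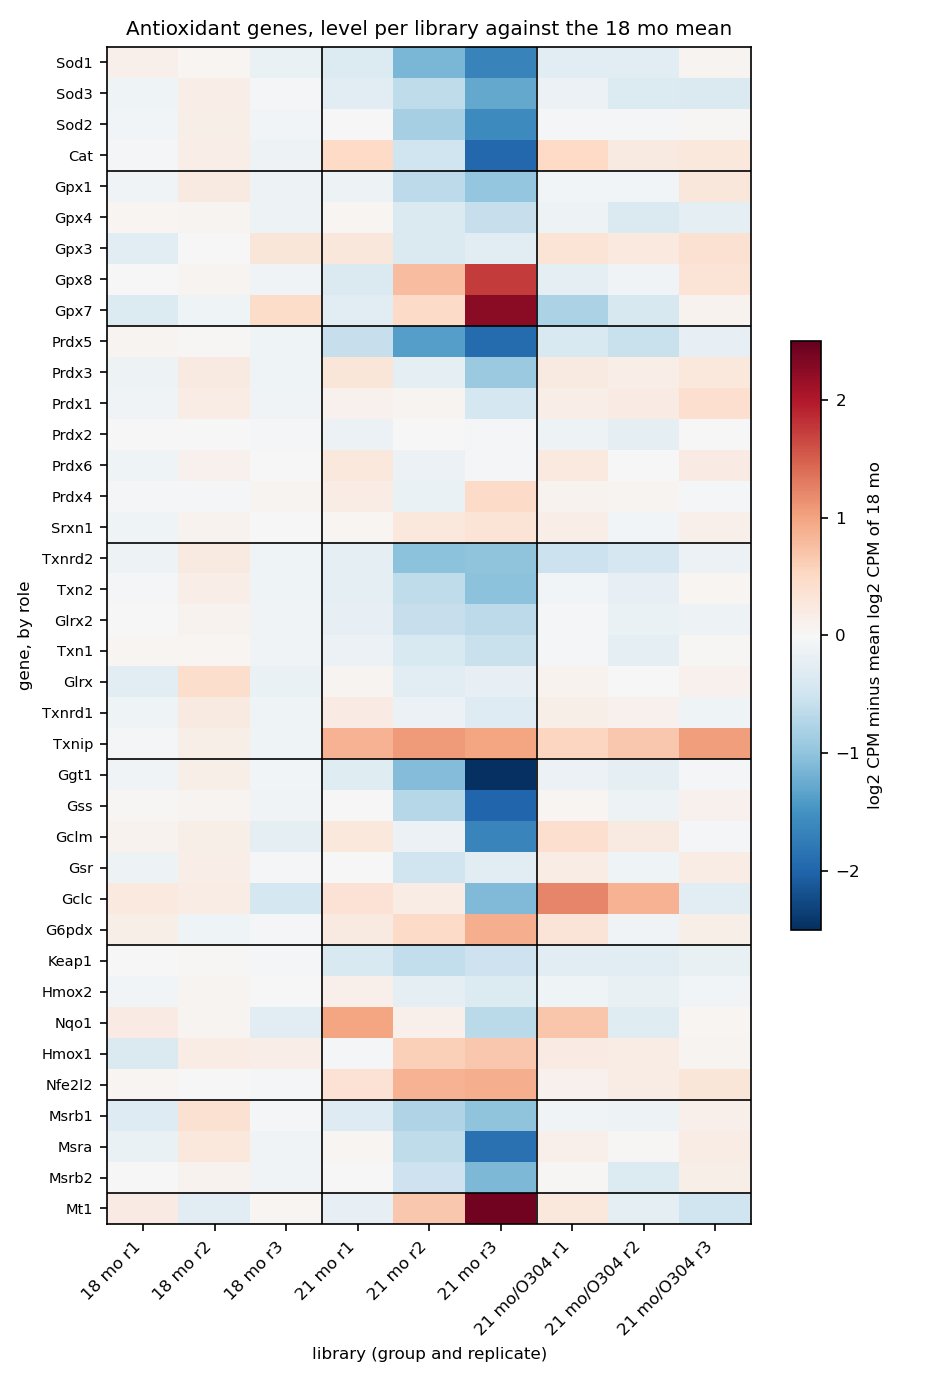
Log2 CPM of each gene in each library minus the mean log2 CPM of the 18 mo libraries, with genes in rows by role and libraries in columns. Mt2 is left out because 172 counts over 9 libraries carry it. The deepest blue and red cells stand in replicate 3 of the 21 mo group, replicate 2 is paler, and replicate 1 is close to the 18 mo libraries except for genes such as Nqo1, Txnip, Prdx5, Cat and Nfe2l2. For Nqo1 and Cat replicate 1 lies above the 18 mo libraries and replicate 3 below them.

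In the 21 mo/O304 group, dismutases, catalase, thioredoxins, mitochondrial reductases and methionine sulfoxide reductases were at higher fitted levels than in the 21 mo group, and Nfe2l2, G6pdx, Mt1, Gpx7 and Gpx8 at lower ones. No gene of the 39 passed the adjusted threshold by edgeR, and 0% of all genes did. DESeq2 called Nfe2l2 alone, beside 6.07% of all genes with an adjusted p, and voom with quality weights 26, beside 41.1%. An unadjusted p under 0.05 was found for 10 of the 39 (25.6%), 6 higher and 4 lower, beside 20.7% of all genes, 8.27% higher and 12.4% lower. The fitted value was above 0 for 27 of the 39 (69.2%), against 48.2% of all genes, and the median log2 fold change was 0.34 against -0.02 over all genes. For 10 genes the libraries of both groups did not overlap, 9 higher and 1 lower with O304, beside 21.3% of all genes, 10.8% higher and 10.5% lower. Without replicate 1 of the 21 mo group 19 were called, 14 higher and 5 lower, beside 23.1% of all genes, 10.6% higher and 12.6% lower. Leaving out replicate 3 of that group gave 0 calls and a median of 0.17. This comparison and the one above share the 21 mo libraries, so a low 21 mo library moves both, also in the groups of genes described below. The shares of all genes below 0 at 21 mo (47.3%) and above 0 with O304 (48.2%) apply to the sign counts of those groups too.

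**Figure D4:**
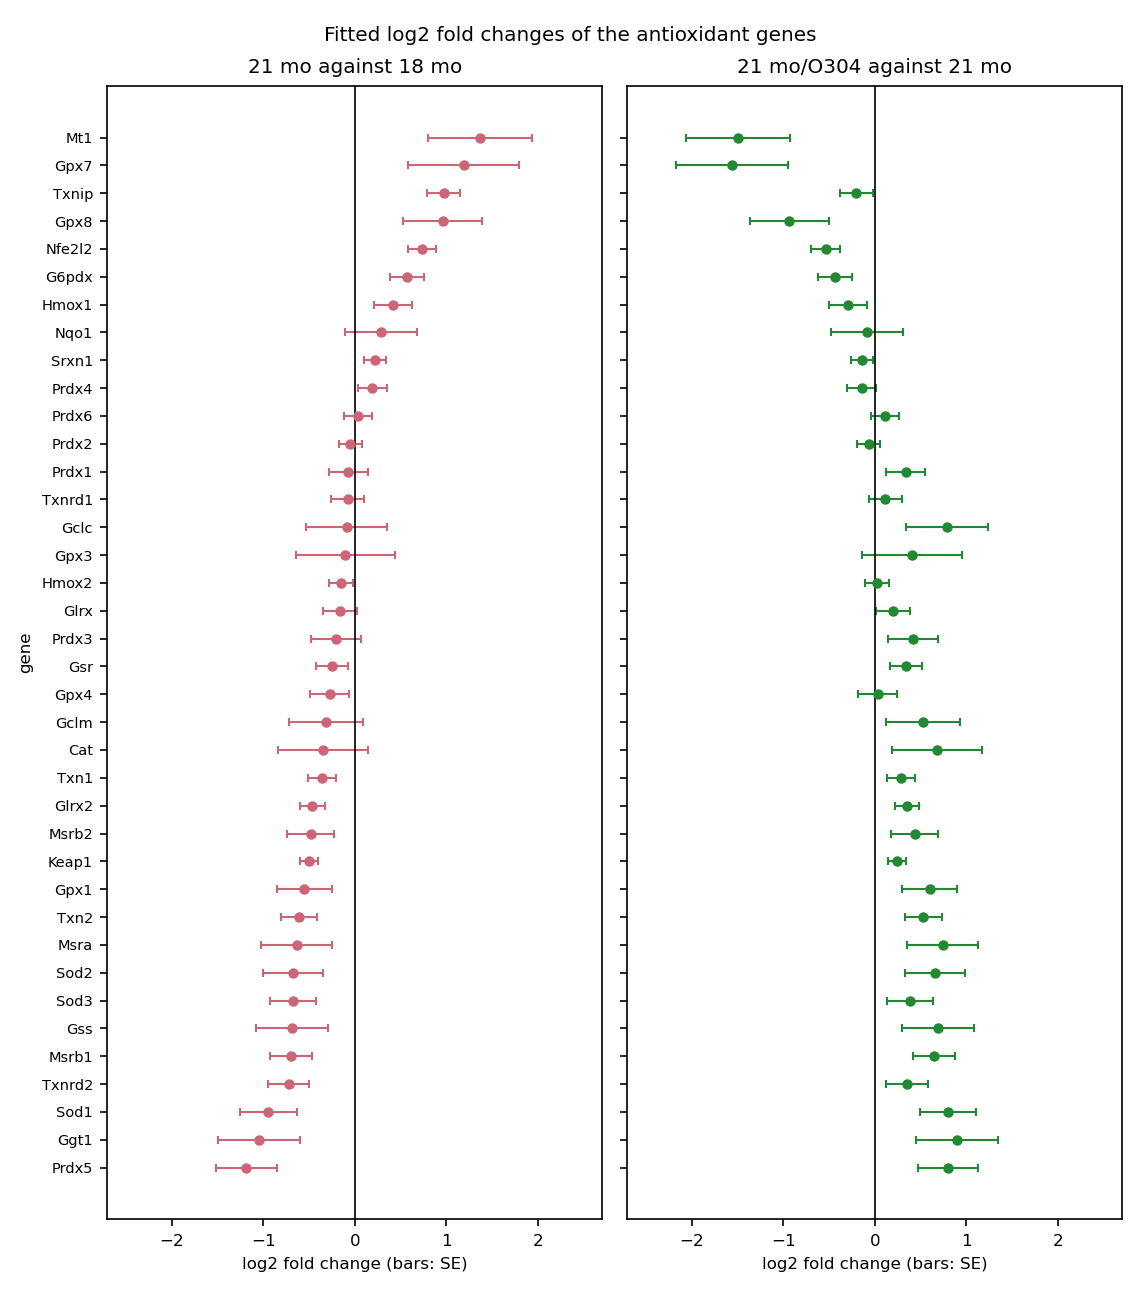
Fitted log2 fold changes of 38 genes for 21 mo against 18 mo (left) and 21 mo/O304 against 21 mo (right), with bars of 1 standard error, in the order of the left panel. Mt2 is left out. Prdx5 is lowest on the left at -1.18 and Mt1 highest at 1.36, and both panels use the same 21 mo libraries.

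Among the superoxide dismutases and catalase, all 4 genes had fitted values below 0 in the 21 mo group and above 0 with O304. Sod1 (chromosome 16, 90220754 to 90226329, in the GRCm38 coordinates of the table, as for the genes below), the copper and zinc dismutase of the cytosol, was at 610.3, 579.7 and 497 CPM in the 18 mo libraries, 445, 255 and 177 in those of the 21 mo group and 469, 469 and 588 in those given O304. All 3 of the 21 mo libraries lay below the other 6. The log2 fold change was -0.94 ± 0.31, adjusted p = 0.11, in 21 mo against 18 mo, and 0.80 ± 0.31, adjusted p = 0.208, in 21 mo/O304 against 21 mo (edgeR). Sod3, the extracellular dismutase, was at 550.0, 668 and 576 CPM in the 18 mo libraries, 495, 381 and 246 in those of the 21 mo group and 535, 467 and 466 in those given O304, so that the 18 mo libraries were above all others. Its fitted difference was -0.68 ± 0.25, adjusted p = 0.137, between 21 mo and 18 mo, and 0.39 ± 0.25, adjusted p = 0.374, with O304. Sod2, the manganese dismutase of mitochondria, was at 348 ± 29.5 CPM at 18 mo, 218 ± 115 at 21 mo and 343 ± 10.9 with O304 (SD, n = 3), and replicate 1 of the 21 mo group, at 343 CPM, lay within the other groups. Cat, the peroxisomal catalase and the most abundant of the 4 per length, was at 946, 1094 and 897 CPM in the 18 mo libraries, 1370.4, 686 and 249 in those of the 21 mo group and 1373, 1144 and 1173 in those given O304. The 21 mo libraries of Cat ran from the lowest of the 9 to just under the highest, and its value of -0.35 ± 0.49 against 18 mo turned to 0.06 without replicate 3. Catalase was above the 18 mo libraries in all 3 given O304, by 0.33 ± 0.49, adjusted p = 0.88 (edgeR). That error takes in the spread of the 21 mo libraries, whose SD was 565 CPM, against 103 at 18 mo and 125 with O304.

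Of the 5 glutathione peroxidases, Gpx1, Gpx3 and Gpx4 had fitted values below 0 in the 21 mo group and Gpx7 and Gpx8 above 0. Gpx1 (chromosome 9, 108338903 to 108340343) was at 2602, 3225 and 2544 CPM in the 18 mo libraries, 2540.4, 1756 and 1422 in those of the 21 mo group and 2662, 2651 and 3363 in those given O304. Its 21 mo libraries were the lowest of the 9, though replicate 1 nearly reached the lowest 18 mo library, and the log2 fold changes were -0.55 ± 0.30, adjusted p = 0.273, against 18 mo, and 0.60 ± 0.30, adjusted p = 0.278, with O304 against 21 mo. Gpx3 (chromosome 11, 54902453 to 54910377) was at 20079, 24569.5 and 30155 CPM in the 18 mo libraries, 30105, 19271 and 20251 in those of the 21 mo group and 31243, 28962 and 32165 in those given O304. The 18 mo and 21 mo libraries of Gpx3 overlapped throughout, and the fitted difference was -0.10 ± 0.54, adjusted p = 0.917 (edgeR). Gpx7 and Gpx8 act in the endoplasmic reticulum during the folding of secreted proteins. The level of Gpx7 was 1.98, 2.34 and 3.45 CPM in the 18 mo libraries, 2.07, 3.52 and 12.1 in those of the 21 mo group and 1.45, 1.91 and 2.67 in those given O304. Replicate 3 of the 21 mo group stood alone, and the value of 1.19 ± 0.60, adjusted p = 0.243, against 18 mo became 0.09 without it, as -1.56 ± 0.61, adjusted p = 0.212, with O304 became -0.47. Gpx8 had the same library highest, at 34.9 CPM beside 8.09 and 17.8 CPM in replicates 1 and 2. Its 18 mo libraries held 10.4 ± 0.539 CPM (SD, n = 3). Gpx4 was at 969 ± 72.4, 803 ± 179 and 822 ± 65.6 CPM in the 18 mo, 21 mo and 21 mo/O304 groups (SD, n = 3), and its counts are uncertain because the copy Gpx4-ps2 held 22610 counts beside 131748 for Gpx4.

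Prdx5 (chromosome 19, 6906697 to 6910106), a peroxiredoxin of mitochondria, peroxisomes and cytosol, had the lowest fitted value of all 39 genes against 18 mo. It was at 1698, 1632 and 1502 CPM in the 18 mo libraries, 1084, 619 and 424 in those of the 21 mo group and 1235, 1089.8 and 1388 in those given O304. The 3 groups did not overlap, with 18 mo highest, O304 between and 21 mo lowest, although replicate 1 of 21 mo and replicate 2 of O304 were close. The log2 fold changes were -1.18 ± 0.33, adjusted p = 0.0858, for 21 mo against 18 mo, 0.80 ± 0.33, adjusted p = 0.222, for 21 mo/O304 against 21 mo and -0.38 ± 0.33, adjusted p = 0.759, for 21 mo/O304 against 18 mo (edgeR). The error of the last takes in the spread of the 21 mo libraries, whose SD was 339 CPM, against 99.5 at 18 mo and 149 with O304. The other peroxiredoxins stayed closer to 0, between -0.21 for Prdx3, the mitochondrial form, and 0.19 for Prdx4, the form of the endoplasmic reticulum, and Srxn1, which regenerates overoxidized peroxiredoxins, was at 0.22. Prdx2, abundant in red cells, was the steadiest at 235 ± 3.08, 227 ± 12.2 and 217 ± 16.1 CPM (SD, n = 3). Prdx1 was above every 21 mo library in all 3 given O304, at 939, 967 and 1125 CPM against 901, 879.9 and 618, by 0.34 ± 0.22, adjusted p = 0.372 (edgeR).

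In the thioredoxin and glutaredoxin system 6 of 7 genes had fitted values below 0 in the 21 mo group, with a median of -0.36, and the exception was Txnip. Txn1, the cytosolic thioredoxin, was at 297, 299.9 and 271 CPM in the 18 mo libraries, 260.4, 221 and 196 in those of the 21 mo group and 282, 249 and 295 in those given O304. The 18 mo libraries were above those of 21 mo, and the log2 fold change of 21 mo against 18 mo was -0.36 ± 0.15, adjusted p = 0.184 (edgeR). Its mitochondrial counterpart Txn2 (chromosome 15, 77915047 to 77929006) was at 205, 237 and 196 CPM in the 18 mo libraries, 178, 136 and 104 in those of the 21 mo group and 203, 183 and 218 in those given O304. All 3 of its 21 mo libraries were below the other 6, with -0.61 ± 0.20, adjusted p = 0.11, against 18 mo and 0.53 ± 0.20, adjusted p = 0.201, with O304 (edgeR). Txnrd2, the mitochondrial thioredoxin reductase, was at 28.1, 35.9 and 28.4 CPM in the 18 mo libraries, 25.8, 15.1 and 15.3 in those of the 21 mo group and 21.1, 22.8 and 27.8 in those given O304. Here the 18 mo libraries were above both other groups, and against 18 mo the log2 fold change was -0.72 ± 0.23, adjusted p = 0.101, for 21 mo and -0.37 ± 0.23, adjusted p = 0.647, for O304 (edgeR). Glrx2 (chromosome 1, 143716338 to 143749676), the mitochondrial glutaredoxin, was at 37.2, 39.3 and 35.0 CPM in the 18 mo libraries, 32.4, 24.9 and 23.6 in those of the 21 mo group and 36.1, 33.1 and 34.1 in those given O304. The 21 mo libraries again lay below the other 6, with -0.46 ± 0.14, adjusted p = 0.0907, and 0.35 ± 0.14, adjusted p = 0.205, in the same order (edgeR). The cytosolic members Txnrd1 and Glrx had fitted values of -0.08 ± 0.18 and -0.16 ± 0.19 and overlapping libraries.

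Txnip (chromosome 3, 96557957 to 96561883) encodes a protein that binds reduced thioredoxin and lowers its activity, and that also limits glucose uptake. It was at 250.5, 287 and 241 CPM in the 18 mo libraries, 470.0, 539 and 515 in those of the 21 mo group and 377, 411 and 537 in those given O304. Every library aged 21 months, with or without O304, was above every 18 mo library, and replicate 1 of the 21 mo group stood with replicates 2 and 3. The log2 fold change was 0.97 ± 0.18, adjusted p = 0.0626, for 21 mo against 18 mo and 0.77 ± 0.18, adjusted p = 0.325, for 21 mo/O304 against 18 mo. Between 21 mo/O304 and 21 mo it was -0.20 ± 0.18, adjusted p = 0.515, and replicate 3 of the O304 group lay inside the 21 mo range.

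**Figure D5:**
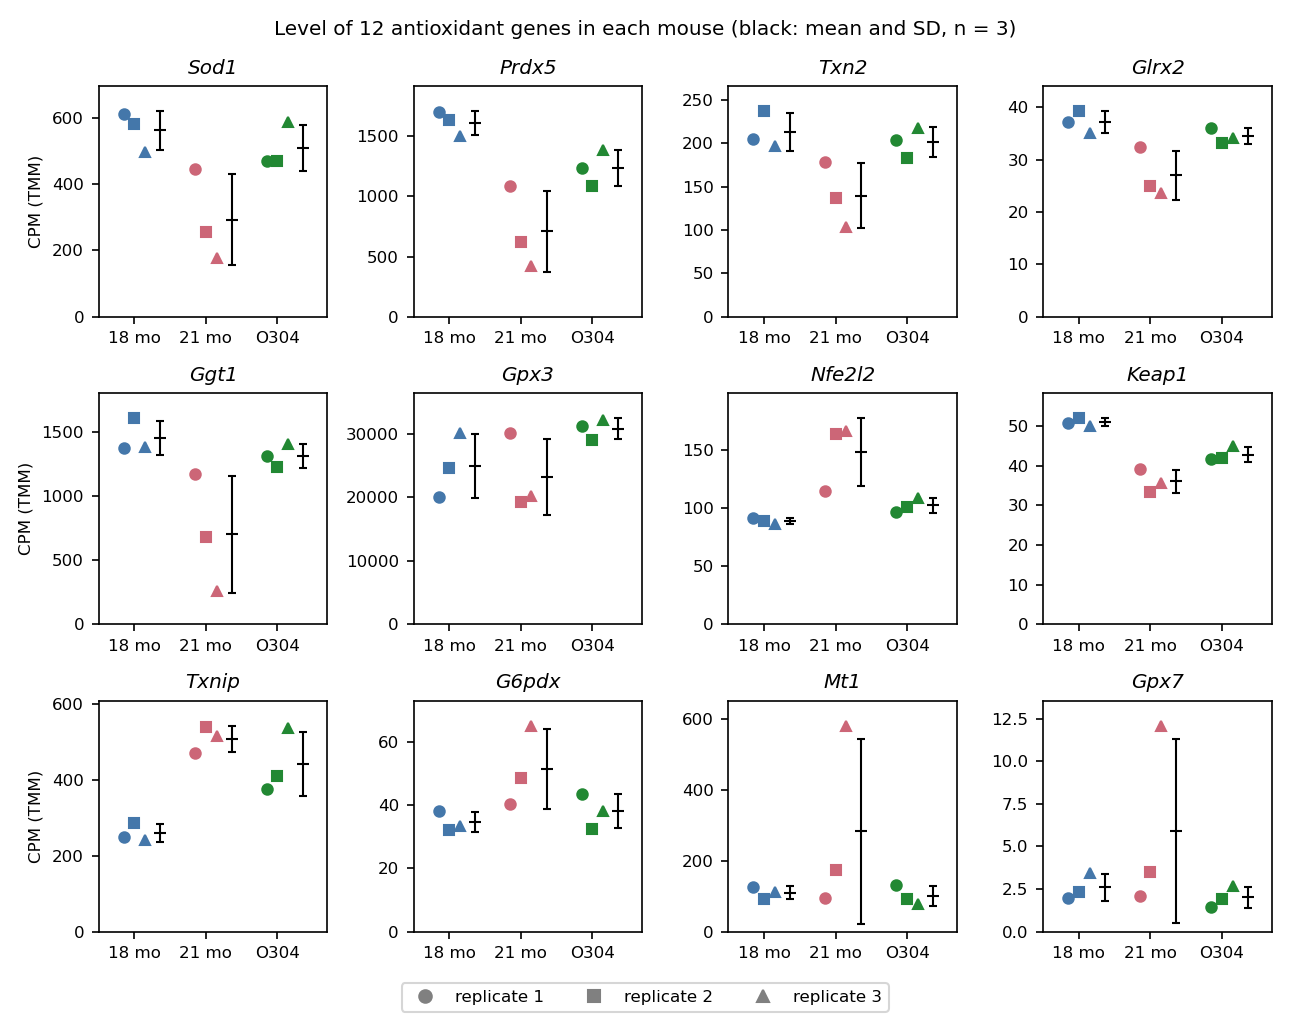
CPM of 12 genes in each library, with the group on the horizontal axis, the replicate as the symbol, and the mean with 1 SD of 3 libraries in black beside each group. For Sod1, Prdx5, Txn2, Glrx2, Ggt1 and Keap1 the 21 mo points lie below all others, for Nfe2l2 above all others, and for Mt1 and Gpx7 only replicate 3 of the 21 mo group stands out.

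For glutathione itself, the genes of synthesis, recycling and NADPH supply gave 5 of 6 fitted values below 0 in the 21 mo group, with a median of -0.28. Ggt1 (chromosome 10, 75561604 to 75586200), the brush-border transferase that cleaves extracellular glutathione, was at 1371, 1608 and 1383 CPM in the 18 mo libraries, 1169, 683 and 257 in those of the 21 mo group and 1309, 1223 and 1404 in those given O304. The 21 mo libraries were below all others and far apart from each other. The fit gave -1.05 ± 0.45, adjusted p = 0.182, against 18 mo and 0.90 ± 0.45, adjusted p = 0.277, with O304 (edgeR). Gss, glutathione synthetase, had a like spread in the 21 mo group, at 319, 194 and 80.7 CPM, against 318 ± 19.2 CPM at 18 mo and 319.7 ± 25.9 CPM with O304 (SD, n = 3). Gclc and Gclm form the ligase that makes the first peptide bond. Gclc was at 315, 300.1 and 194 CPM in the 18 mo libraries, 338, 299 and 123 in those of the 21 mo group and 611, 482 and 219 in those given O304. The 2 highest values were O304 replicates 1 and 2, while replicate 3 was near the 18 mo level, and the fitted difference of 0.79 ± 0.45, adjusted p = 0.327, between O304 and 21 mo did not exceed that spread. Gsr, which returns oxidized glutathione to its reduced form, was at 220.0 ± 24.4, 185 ± 33.1 and 235 ± 26.3 CPM (SD, n = 3). G6pdx, which supplies NADPH through the pentose phosphate pathway, was at 38.2, 32.2 and 33.4 CPM in the 18 mo libraries, 40.3, 48.4 and 65.0 in those of the 21 mo group and 43.3, 32.5 and 38.1 in those given O304. All 21 mo libraries of G6pdx were above those of 18 mo, by 0.57 ± 0.19, adjusted p = 0.11, and the O304 libraries overlapped both groups, with -0.43 ± 0.19, adjusted p = 0.234, against 21 mo (edgeR).

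Nfe2l2 (chromosome 2, 75675513 to 75704641), the gene of NRF2, was at 91.8, 89.2 and 86.6 CPM in the 18 mo libraries, 115, 164 and 167 in those of the 21 mo group and 96.5, 101 and 109 in those given O304. The 3 groups did not overlap, with 18 mo lowest, O304 between and 21 mo highest. The fit gave 0.74 ± 0.16, adjusted p = 0.0626, for 21 mo against 18 mo, -0.54 ± 0.15, adjusted p = 0.175, for O304 against 21 mo and 0.20 ± 0.15, adjusted p = 0.72, for O304 against 18 mo (edgeR). Keap1 (chromosome 9, 21229730 to 21239361), its inhibitor, was at 50.7, 52.0 and 50.1 CPM in the 18 mo libraries, 39.2, 33.4 and 35.6 in those of the 21 mo group and 41.6, 41.8 and 44.9 in those given O304. Its 3 groups were separated in the opposite order, with -0.50 ± 0.10, adjusted p = 0.0626, 0.25 ± 0.10, adjusted p = 0.218, and -0.25 ± 0.10, adjusted p = 0.474, for the same contrasts (edgeR). The ratio of Nfe2l2 to Keap1 in CPM, which has no test of its own, was 1.81, 1.71 and 1.73 in the 18 mo libraries, 2.93, 4.90 and 4.68 in the 21 mo libraries and 2.32, 2.42 and 2.43 with O304.

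Among the inducible targets the fitted values went both ways. Nqo1, a quinone reductase, was at 95.7, 86.5 and 68.1 CPM in the 18 mo libraries, 163, 90.2 and 52.0 in those of the 21 mo group and 134, 66.9 and 85.9 in those given O304. Replicate 1 of the 21 mo group was the highest of all 9 and replicate 3 the lowest, and the fitted value of 0.28 ± 0.39, adjusted p = 0.669, against 18 mo turned to -0.21 without replicate 1. Hmox1, the inducible haem oxygenase, was at 48.0 ± 9.78, 64.2 ± 16.1 and 52.5 ± 2.72 CPM in the 18 mo, 21 mo and O304 groups (SD, n = 3), with 0.42 ± 0.21, adjusted p = 0.237, for 21 mo against 18 mo (edgeR). Hmox2, the constitutive form, was at 52.0 ± 2.31, 47.0 ± 8.37 and 47.8 ± 2.08 CPM (SD, n = 3). Of 9 textbook NRF2 targets among the 39 (Gclc, Gclm, Nqo1, Hmox1, Srxn1, Txnrd1, Prdx1, Gsr and G6pdx), 4 had fitted values above 0 and 5 below in 21 mo against 18 mo, with a median of -0.07. In 21 mo/O304 against 18 mo all 9 were above 0, with a median of 0.14 and a range of 0.04 to 0.70, where 50.4% of all genes were above 0, and 0 of the 9 had an unadjusted p under 0.05. Omitting 1 library turned Nqo1 to -0.13 (O304 replicate 1), Hmox1 to -0.03 (18 mo replicate 1) and Txnrd1 to as low as -0.02 (18 mo replicate 1, and below 0 also without 18 mo replicate 3 or O304 replicate 1). Of the 18 other partners and targets of NRF2, 12 were above 0 and 6 below in that contrast.

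All 3 methionine sulfoxide reductases, which repair oxidized methionine in proteins, had fitted values below 0 in the 21 mo group and above 0 with O304. Msrb1, a selenoprotein, was at 151, 247 and 184 CPM in the 18 mo libraries, 152, 112 and 94.6 in those of the 21 mo group and 179, 174 and 209 in those given O304. Replicate 1 of the 21 mo group was level with the lowest 18 mo library, and all O304 libraries were above the 21 mo ones, with -0.70 ± 0.23, adjusted p = 0.107, against 18 mo and 0.65 ± 0.23, adjusted p = 0.19, with O304 (edgeR). Msra was at 312, 195 and 83.6 CPM and the mitochondrial Msrb2 at 31.6, 22.1 and 14.6 CPM in replicates 1 to 3 of the 21 mo group. Their 18 mo means were 305 ± 50.1 and 31.7 ± 2.04 CPM (SD, n = 3).

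Mt1, a metallothionein that binds zinc and copper, was at 126, 91.2 and 113 CPM in the 18 mo libraries, 94.1, 173 and 583 in those of the 21 mo group and 131, 93.4 and 77.7 in those given O304. Replicate 3 of the 21 mo group stood far above the rest, and the values of 1.36 ± 0.57, adjusted p = 0.173, against 18 mo and -1.49 ± 0.57, adjusted p = 0.204, with O304 (edgeR) became 0.26 and -0.40 without it. Mt2 had only 1 to 79 counts in a library, 172 in all against 27738 for Mt1, with the 79 also in replicate 3 of the 21 mo group. Gm45774 on the opposite strand covers 82.8% of the span of Mt2 and had 18 counts, so little can be read from Mt2.

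Grouped by where the proteins act, a feature the list did not use, all 6 members listed as mitochondrial (Sod2, Prdx3, Txn2, Txnrd2, Glrx2 and Msrb2) had fitted values below 0 in the 21 mo group. Their range was -0.72 to -0.21 with a median of -0.55, and Prdx3 turned to 0.04 without replicate 3 of that group. With O304 all 6 were above 0, from 0.35 to 0.66 with a median of 0.43, though they were not tested as a set. Of all genes 47.3% were below 0 in 21 mo against 18 mo and 48.2% above 0 with O304. Both contrasts use the same 21 mo libraries, so opposite signs in them are not separate observations, here or in the sets that follow. Prdx5 and Gpx1, described above as acting in mitochondria and elsewhere, were not counted among them, and other members may also act there in part. Prdx5 and Gpx1 stood at -1.18 and -0.55 in 21 mo against 18 mo and at 0.80 and 0.60 with O304 against 21 mo. The 6 selenoproteins (Gpx1, Gpx3, Gpx4, Txnrd1, Txnrd2 and Msrb1) were likewise below 0, with a median of -0.41, and above 0 with O304, with a median of 0.38. Of these, Gpx3 turned to 0.08 without replicate 3 of the 18 mo group, and Txnrd1 to 0.02 without replicate 3 of the 21 mo group and to 0.04 without replicate 2 of the 18 mo group. With O304 against 21 mo, Gpx4 stood at 0.034 ± 0.21, and it turned to -0.089 without replicate 3 of the 21 mo group, to -0.0018 without its replicate 2 and to -0.044 without O304 replicate 1. The 3 proteins of the endoplasmic reticulum (Prdx4, Gpx7 and Gpx8) were above 0 at 0.19, 1.19 and 0.96, and below 0 with O304. Prdx4 turned to -0.16 and 0.19 in those contrasts with voom quality weights, and to 0.032 with O304 without replicate 3 of the 21 mo group. The fibroblast markers were highest in the same 21 mo library as Gpx7 and Gpx8, and their part in these values was not tested. The spread within the groups differed between conditions, since the median coefficient of variation over the 39 genes was 10.3% at 18 mo, 26.7% at 21 mo and 8.86% with O304. It was larger in the 21 mo than in the 18 mo group for 36 of the 39 genes, with Glrx, Msrb1 and Txnip as the exceptions.

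Between 21 mo/O304 and 18 mo the 39 genes were close to balanced. None passed the adjusted threshold by edgeR, where 0% of all genes did, while DESeq2 and voom with quality weights each called Txnip alone, beside 0.869% and 2.61% of all genes. With only the 6 libraries of this contrast fitted, and so without the spread of the 21 mo group, 0 were called, beside 0.144% of all genes. An unadjusted p under 0.05 was found for Txnip and Keap1 (5.13%), beside 9.66% of all genes. The median log2 fold change was 0.03 against 0.00 over all genes, with 21 above 0 and 18 below, beside 50.4% and 49.6% of all genes. The libraries did not overlap for 8 genes, with Cat, Txnip and Nfe2l2 higher with O304 and Sod3, Prdx5, Txnrd2, Hmox2 and Keap1 lower, beside 26.5% of all genes, 13.2% higher and 13.3% lower. The 7 adipocyte markers summed to 283, 110.5 and 240.5 CPM in the O304 libraries and to 35.4 to 129 CPM in the other 6, and most of the sum in replicate 2 was Fabp4, at 101 CPM. Fabp4 was at 30.1 to 128 CPM in those 6 libraries. Adipoq, Plin1, Cidec and Cfd were higher in every library given O304 than in any other, with Adipoq at 21.6, 1.97 and 15.1 CPM against 0 to 1.41 CPM, and at 0 in 3 of the other 6. Replicate 2 exceeded the highest of the other libraries only narrowly for Cfd, at 4.23 against 4.19 CPM, and Plin1, at 1.13 against 1.02 CPM. For Adipoq and Cidec replicate 2 was at 1.97 against 1.41 and 2.21 against 1.64 CPM. Their part in the O304 values was not tested.

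The other genes of the pathway were taken from 6 lists of pathway genes. None of their tested members passed the adjusted threshold by edgeR in 21 mo against 18 mo, and the counts that follow are those at an unadjusted p under 0.05, beside 14% of all genes higher and 12% lower. Of 18 other glutathione cycle genes 1 was higher and 4 lower, and the median of all 18 was -0.28. Among them Slc25a39, the mitochondrial glutathione carrier, was at 823.9 ± 60.8, 449.6 ± 167 and 684.9 ± 58.3 CPM in the 18 mo, 21 mo and O304 groups (SD, n = 3), and Hagh, a glyoxalase, at 180.3 ± 19.9, 111 ± 34.1 and 180.1 ± 1.94 CPM. Dpep1, the brush-border dipeptidase that follows Ggt1, was at -0.85 ± 0.28, and Chac1, which cleaves glutathione in the cytosol, at 1.20 ± 0.35 on the log2 scale. The level of Chac1 was low, at 0.957 ± 0.137, 2.20 ± 0.558 and 2.01 ± 0.540 CPM in the 18 mo, 21 mo and O304 groups (SD, n = 3). Of 21 glutathione transferases 7 were higher and 3 lower. The smallest adjusted p was that of Mgst1, a membrane-bound transferase, at 58.4 ± 9.48 CPM at 18 mo, 172 ± 35.9 at 21 mo and 92.6 ± 13.3 with O304 (SD, n = 3), a difference of 1.56 ± 0.20, adjusted p = 0.0593, and of -0.89 ± 0.19, adjusted p = 0.175, with O304 against 21 mo (edgeR). Gsta2, Gsta4 and Gsta1 were at 1.33 ± 0.27, 1.91 ± 0.42 and 3.58 ± 0.82 on the same scale, from a level of 0.400 CPM at 18 mo for Gsta1.

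Of 11 other sources of NADPH 0 were higher and 2 lower at an unadjusted p under 0.05, which were Idh2, the mitochondrial isocitrate dehydrogenase, at -0.65 ± 0.26, and Aldh1l1, of folate metabolism, at -0.84 ± 0.35. Taldo1 and Mthfd1 followed at -0.31 ± 0.14 and -0.65 ± 0.34. Of 28 other selenoproteins and redox proteins 5 were higher and 3 lower. Ccs, the copper chaperone that loads Sod1, was at 125 ± 5.30 CPM at 18 mo, 54.4 ± 24.4 at 21 mo and 87.2 ± 18.7 with O304 (SD, n = 3), or -1.21 ± 0.29 between the 21 mo and 18 mo groups, adjusted p = 0.0716 (edgeR). Glrx5, a mitochondrial glutaredoxin of iron-sulfur cluster assembly, was at -0.89 ± 0.17, and Oxr1 and Sesn1, both tied to oxidative stress resistance, at 0.64 ± 0.16 and 0.60 ± 0.15. Of 18 partners and other targets of NRF2 4 were higher and 2 lower. The higher ones included Cbr1, a carbonyl reductase, at 1.5 ± 0.31, Abcc4, an efflux transporter, at 1.76 ± 0.36, Maff, a small Maf protein, at 1.73 ± 0.37, and Ephx1, an epoxide hydrolase, at 1.04 ± 0.26. With O304 against 21 mo they stood at -1.26 ± 0.31, -0.91 ± 0.36, -1.22 ± 0.37 and -1.40 ± 0.26. Of 7 metal handling genes 2 were higher, which were Cp, ceruloplasmin, at 2.96 ± 0.61, and Trf, transferrin, at 3.11 ± 0.73, while the zinc transporters Slc30a1 and Slc39a14 were at -0.27 ± 0.22 and 0.29 ± 0.24. The level of Trf was 1.88 ± 0.371 CPM at 18 mo and 16.3 ± 16.9 CPM at 21 mo (SD, n = 3). With O304 against 21 mo none of these list genes passed the adjusted threshold by edgeR either. At an unadjusted p under 0.05 the numbers higher and lower were 2 and 2 for the glutathione cycle, 2 and 4 for the transferases, 1 and 1 for NADPH sources, 2 and 5 for the other redox proteins, 2 and 4 for NRF2 partners and targets and 0 and 2 for metal handling, beside 8.27% of all genes higher and 12.4% lower.

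Some counts are uncertain because genes overlap and strandedness is not given in the sources used here. The whole spans of G6pdx, Gpx8 and Txnip lie under Ikbkg, Cdc20b and Gm15441 on the opposite strand, which had 6301, 0 and 776 counts beside 6492, 2242 and 62539 of their own. The span of Gss is covered by 81.8% with genes of the opposite strand that had 36639 counts beside its 41677. Some genes had levels in the saline group outside the ranges of both other groups, for Gpx1 only narrowly. Of these genes, Sod1 overlaps Scaf4 by 11.7% of its span, Prdx5 overlaps Trmt112 by 11.99% and Keap1 overlaps Gm16754 by 34.4%. Nfe2l2 overlaps Gm24996 by 0.34%, while Txn2, Glrx2, Ggt1 and Gpx1 overlap none.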

How the data were processed

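Kidney RNA of 9 mice was sequenced in 9 libraries of 3 groups. According to the paper and the submitters' processing notes, reads were cleaned, aligned with HISAT2 2.0.5 and assigned to genes with featureCounts 1.5.0-p3 on GRCm38. The deposited counts are raw, and the authors derived the deposited FPKM from these counts and the length of each gene. Columns holding the authors' own comparisons (log2 fold change, p-value, adjusted p from DESeq2 1.20.0) were not used. Strandedness and the treatment of reads with several matches are not given in the sources used here.

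Counts were tested with the quasi-likelihood test of edgeR 4.0.16 (R 4.3.3) after TMM normalization and filterByExpr (minimum count 10, minimum total 15), which kept 15902 of 54532 genes. All 9 libraries entered a fit of 3 group means with 6 residual degrees of freedom, and two-sided p-values were adjusted by Benjamini-Hochberg over all genes tested, with a threshold of 0.05. CPM values carry the TMM factors and no prior count. The standard errors of log2 fold changes are approximate. Each is the absolute log2 fold change divided by the square root of its quasi-likelihood F statistic. Libraries held 15636378 to 18396725 counts. The p-values measure the spread between these 3 libraries a group.

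The members and lists were chosen with earlier results of these data known. Values in every library are given for members with an unadjusted p under 0.05 in either contrast with the 21 mo group, for members whose 21 mo libraries overlap neither other group, and in each role for the member with the highest mean FPKM. Values of single libraries given for Prdx1, Gss, Gpx8, Msra, Msrb2, Gclc, Sod2 and Mt2 were chosen after they were seen. From each pathway list up to 4 genes with the smallest p in 21 mo against 18 mo are named.

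The alternatives were a DESeq2 1.42.0 fit, DESeq2 size factors or upper-quartile factors within edgeR, a looser filter (1 count or more in all) and a stricter one (10 counts or more in each library), a fit of the 6 libraries of a contrast, a block for the replicate number, voom of limma 3.58.1 with quality weights, FPKM analysed by limma-trend after log2(value + 1) where the mean reached 0.5, and the omission of each library. Counts of members by sign and by unadjusted p under these settings were added after seeing the data. The fits were tested on simulated data with 4-fold changes. There the false calls of DESeq2 exceeded its nominal rate and those of edgeR did not. Those of voom with quality weights and of limma-trend on log2(CPM + 1) also exceeded it, by less. That simulation used the spread that edgeR estimated, equal in all groups, so it cannot rank the fits on these data. Genes called by DESeq2 or voom but not by edgeR depend on the choice of fit. Whether these rates hold where the spread differs between groups, as it does here, was not tested.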

Additional observations from a re-analysis of the deposited data

How the results depend on the processing

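Of the 39 genes, 0 passed the adjusted threshold in the edgeR fit of any contrast. In 21 mo against 18 mo, 6 were called with DESeq2, 2 with every gene of at least 1 count, 27 with voom quality weights and 14 at an unadjusted p. The shares of all genes were 12.3%, 2.04%, 52.9% and 26.1% in the same order. In 21 mo/O304 against 21 mo the calls were 1 with DESeq2, 26 with voom weights and 10 at an unadjusted p, and in 21 mo/O304 against 18 mo they were 1, 1 and 2. The shares of all genes were 6.07%, 41.1% and 20.7% in the former contrast and 0.869%, 2.61% and 9.66% in the latter. The voom fit weighted replicate 2 of the 21 mo group at 9.11, beside 0.223 and 0.132 for replicates 1 and 3. Omitting 1 library gave 0 to 22 calls in 21 mo against 18 mo and 0 to 19 in 21 mo/O304 against 21 mo, the higher values without replicate 1 of the 21 mo group and 0 in every other omission. Genes with an unadjusted p under 0.05 then numbered 8 to 29 and 3 to 26, against 14 and 10 with all libraries, with 29 and 26 without that replicate, 8 without replicate 2 of the 18 mo group, and 3 to 5 in 21 mo/O304 against 21 mo without 21 mo replicate 2 or 3 or any O304 library. The same counts were 27 and 31 with voom weights, and 2 in 21 mo/O304 against 21 mo when only its 6 libraries were fitted. The cause was not tested.

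Over all alternatives the median ran from -0.38 to -0.07 in 21 mo against 18 mo, from 0.17 to 0.42 in 21 mo/O304 against 21 mo and from -0.03 to 0.07 in 21 mo/O304 against 18 mo, the extremes all from omitting 1 library. Of the 19 genes named by the rule, some turned sign with an omitted library. In 21 mo against 18 mo Cat ran from -1.05 to 0.055, Gpx3 from -0.32 to 0.076 and Nqo1 from -0.21 to 0.58. In 21 mo/O304 against 21 mo Nqo1 ran from -0.43 to 0.42, and was 0.0083 with limma-trend on FPKM. In 21 mo/O304 against 18 mo Gpx1 ran from -0.058 to 0.17, Msrb1 from -0.20 to 0.16, Mt1 from -0.36 to 0.042, Nqo1 from -0.13 to 0.41, Txn1 from -0.11 to 0.0030 and Txn2 from -0.13 to 0.0061. The cause was not tested.

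Libraries with the same number correlated in their deviations from the group means at -0.13 to 0.17, so the numbers were not taken to pair the mice. With the replicate number as a block 0 genes were called in each contrast, beside 0% of all genes, the medians were -0.25, 0.35 and 0.02, and 13 and 8 genes had an unadjusted p under 0.05 in the contrasts with the 21 mo group. The 13 in 21 mo against 18 mo stood beside 24.4% of all genes. Depth limited Mt2 and, at 1.45 to 12.1 CPM, Gpx7.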
